A study of Homo sapiens with 12 samples.

Results

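The genes described here are 36 genes of the integrated stress response led by the transcription factor ATF4, taken by name from the count table together with the amino acid enzymes, amino acid transporters and tRNA-charging enzymes linked to it. All 36 had a row among the 23459 genes of the table, and 35 passed the filter on low counts and were tested with 14775 genes in all. CBS, the enzyme that condenses homocysteine with serine, was the gene that did not pass: it had no counts in any vector EtOH library and was at or below 0.176 CPM (CPM being counts scaled to library size) in the others. The libraries came from MCF10A, an immortalized, non-tumorigenic line of human mammary epithelial cells, carrying a lentiviral doxycycline-inducible allele of YAP5SA. YAP5SA is a mutant of the transcriptional coactivator YAP that the kinases of the Hippo pathway cannot inactivate. These cells received either a vector that expresses JUN or the same vector without insert, and then 100 ng/ml of doxycycline (Dox) or ethanol (EtOH), in which the drug was dissolved. The 4 groups, with 3 libraries each, are called vector EtOH and vector Dox for the empty vector, and JUN EtOH and JUN Dox for JUN. All groups thus carry the inducible allele and a second vector, and the untreated controls were infected cells, not parental ones. The experiment asked how JUN affects genes controlled by YAP. The labels give no time of treatment, and the study's methods give an overnight induction time for this allele without naming these libraries. As a model it is limited to 1 cell line with pools of infected cells, and doxycycline without the inducible allele was not among the libraries, so an effect of the drug itself and of YAP5SA cannot be told apart.

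In the integrated stress response, a shortage of amino acids, misfolded protein in the endoplasmic reticulum (ER) or other stresses activate kinases that phosphorylate the translation factor eIF2. General protein synthesis then falls, while the ATF4 message, held back by short upstream reading frames, is translated better. ATF4 pairs with C/EBP proteins and switches on genes that make, import and charge amino acids, and, under lasting stress, genes that limit growth or lead to cell death. Because ATF4 is regulated largely by translation, its mRNA level is an incomplete readout of its activity.

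ATF4 and its C/EBP partners bind a composite element, the CEBP-ATF element, searched here as TGATGNAA on both strands (TTNCATCA on the other). Promoter windows of 300 bases, from 250 before to 50 after the start site that RefSeq gives (GRCh38.p14), were on hand for 31 of the 36 members. The element was found in 9 of these 31 windows (29%), against 3.62% of all 35116 windows of that length. An AP-1 site (TGANTCA, its own reverse complement), the kind of site that JUN binds, was found in 1 member window (3.23%), against 7.71% of all windows. A TEAD site (GGAATG or CATTCC), through which YAP acts, was found in 3 member windows (9.68%), against 14% of all windows. In the member windows no match of one motif overlapped a match of another. The matches to the CEBP-ATF element are shown because ATF4 binds that element, though most member windows held none. The AP-1 match is shown because JUN was the gene overexpressed. They are printed on the strand of the gene with the matching bases in capitals, and each was placed on GRCh37 by an exact match of its whole window. Positions count from the start site at 0. Around or beyond the start site 30 bases are shown.
CEBPG, at -42, chr19:33864952-33865009, plus strand: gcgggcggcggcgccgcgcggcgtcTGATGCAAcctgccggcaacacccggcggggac
CHAC1, at -209, chr15:41245435-41245492, plus strand: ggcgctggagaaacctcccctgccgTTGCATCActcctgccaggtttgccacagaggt
SLC1A5, at -97, chr19:47288136-47288193, minus strand: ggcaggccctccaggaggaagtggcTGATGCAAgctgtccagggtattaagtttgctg
AARS1, at -187, chr16:70323564-70323621, minus strand: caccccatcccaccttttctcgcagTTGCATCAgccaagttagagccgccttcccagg
GARS1, at -33, chr7:30634450-30634479, plus strand: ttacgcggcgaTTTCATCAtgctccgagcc
SLC1A4, at -7, chr2:65216515-65216544, plus strand: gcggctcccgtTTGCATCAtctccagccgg
MARS1, at -4, chr12:57881836-57881865, plus strand: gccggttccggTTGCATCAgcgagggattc
SLC7A1, at 7, chr13:30169800-30169829, minus strand: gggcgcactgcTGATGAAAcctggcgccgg
NARS1, at 14, chr18:55289036-55289065, minus strand: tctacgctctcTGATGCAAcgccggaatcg
DDIT3, AP-1 match at -238, chr12:57914507-57914550, minus strand: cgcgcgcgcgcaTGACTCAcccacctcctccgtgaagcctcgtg

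Of the 10 printed windows, 8 lie wholly inside the annotated span of their gene on GRCh37, so that the span begins upstream of the bases shown. The windows of AARS1 and SLC7A1 lie across the end of the span where the gene begins. For SLC7A1 and NARS1 the match begins after the start site, in transcribed sequence. A match is a description of these letters and no measurement of binding.

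Total counts were 18594867 to 28993487 per library, and 17324 to 17697 genes had a count. JUN was at 47.6 ± 10.5 CPM (SD, n = 3) in vector EtOH and 189.7 ± 4.15 in vector Dox, and at 1279 ± 187 and 1248 ± 92.3 CPM in the JUN libraries without and with Dox, so the vector groups and the JUN groups did not overlap. Inside vector cells JUN itself rose 3.98-fold on induction (adjusted p = 3.09e-07). YAP1 reads, which cannot separate the endogenous gene from the YAP5SA allele, averaged 179, 237, 234 and 279.9 CPM in the same order, and no comparison called it. Of the markers of the line, KRT5 was at 2121 to 4697 CPM and TP63 at 5.36 to 30.0 CPM. The summed basal markers were 6720 to 7060 CPM in vector EtOH and 3599 to 4567 in vector Dox, and with JUN 5394 to 6935 without and 3341 to 5290 with Dox, so they were lower in vector Dox than in vector EtOH, and lower in each JUN Dox library than in any JUN EtOH library. Among 7 markers of other cell types CD3E was at 0, PTPRC had at most 3 counts and DES at most 6, and the summed level of all 7, of which ACTA2 was the main part, was 24.1 to 26.4, 15.8 to 20.8, 23.1 to 28.1 and 19.0 to 26.5 CPM in the 4 groups. The basal markers did not all fall, and KRT5, KRT14, KRT17 and TP63 had lower means with Dox in vector and in JUN cells. CDH1 averaged 129.4 CPM in vector EtOH and 129.2 in vector Dox, but 120.2 in JUN EtOH and 58.7 in JUN Dox. ITGA6 averaged 251.2 and 234.7 CPM in vector cells without and with Dox, and 346.9 and 348.7 in JUN cells. The part of the falling basal markers in the results on induction was not tested. In bulk RNA, fewer cells of a type and less RNA per cell cannot be told apart.

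Vector Dox replicate 1 stood apart from its replicates. It differed from the other vector Dox libraries in a chi-square test over genes, by 63.5 and 50.7 per degree of freedom, against 9.71 between those others. In JUN Dox, replicate 1 differed from replicate 3 by 52.7 and from replicate 2 by 22.3, against 14.7 between replicates 2 and 3, but the vector EtOH pairs differed by 18 to 22.8, so it was less clearly apart. The JUN EtOH pairs differed by 8.24 to 16.4. Counts of calls are also given without replicate 1 of both Dox groups, a setting added after these distances were seen, beside the share of all genes called in that setting.

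Genes were tested with the quasi-likelihood test of edgeR in 1 fit of all 12 libraries, p-values were adjusted over all genes tested, and a gene is said to be called at an adjusted p under 0.05. Folds are ratios of fitted levels, and an SE stands behind ± for log2 fold changes.

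Induction of YAP5SA in vector cells raised more members than it lowered. Of the 35 members tested, 8 were called (22.9%), 7 higher and 1 lower, against 30.1% of all genes tested, 15.6% of all being called higher and 14.4% lower. The members' share of calls was thus not above the background. VLDLR and STC2 rose by more than 2-fold, SLC3A2, MTHFD2, SLC7A5, PYCR1 and SLC38A2 rose less, and PHGDH fell. The median member log2 fold change was 0.18, beside 0.0072 over all genes, and 26 members lay above 0. Without replicate 1 of both Dox groups, 13 members were called, 11 of them higher, against 35.2% of all genes (16.7% higher), and the median was 0.125. Called with a log2 fold change past 1 in size were 2 members, against 7.52% of all genes.

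JUN without induction lowered members of this group. Of the 35 tested, 15 were called (42.9%), 13 lower and 2 higher, against 39% of all genes, of which 18.9% were called lower and 20.1% higher. So the share called was near the background, while 13 of 15 calls pointed down against close to an even split over the table. ASNS and STC2 were about halved, PSAT1, SLC1A5 and PYCR1 followed, and VLDLR and SLC38A2 were higher. The median was -0.23, beside 0.00056 over all genes, with 26 members below 0. Without replicate 1 of both Dox groups 20 members were called, 2 of them higher, against 51.1% of all genes (24.8% higher). Past an absolute log2 fold change of 1 were 3 members, against 8.79% of all genes.

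In JUN cells, induction of YAP5SA gave 7 called members (20%), 6 higher and 1 lower, against 21.4% of all genes, 11.2% higher and 10.3% lower. STC2 rose 2.04-fold, with MTHFD2, SLC1A5, PYCR1, ALDH18A1 and MARS1 rising less, and NUPR1 fell. The median was 0.14 beside 0.0032 over all genes, and 2 members were past an absolute log2 fold change of 1, against 4.66% of all genes. This count rested on single libraries: it was 4 without JUN EtOH replicate 2 or JUN Dox replicate 2, 12 without vector Dox replicate 1 or JUN Dox replicate 1, and 15 (12 higher) without both of the latter. The share of all genes called was 13.9%, 15.4%, 25.9%, 21.1% and 29% (15.2% higher) in these settings, in the same order.

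JUN under induction again gave 15 called members (42.9%), 13 lower and 2 higher, against 35.6% of all genes, 17.2% lower and 18.4% higher. STC2, NUPR1, PYCR1, SLC3A2, ASNS and PSAT1 were the most reduced, and VLDLR and SESN2 were higher. The median was -0.23 beside 0.0030 over all genes, and 29 of the 35 lay below 0. Leaving out replicate 1 of both Dox groups gave 13 calls, 3 of them higher, against 27.9% of all genes (15.4% higher). Calls past an absolute log2 fold change of 1 were 2, against 8.65% of all genes. This comparison shares no library with that of JUN without induction, but both come from 1 fit with a shared estimate of spread, so they are not independent. Called lower in both were 8 members, which is 8 of the 13 in each: ASNS, PSAT1, SHMT2, ALDH18A1, PYCR1, SLC3A2, NARS1 and STC2. That is 61.5% of each list, while 1819 of all genes tested were lower in both, which is 65% of those lower without induction and 71.5% of those lower under it, so the overlap among members was not above that of all genes. VLDLR was the member called higher in both.

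**Figure D1:**
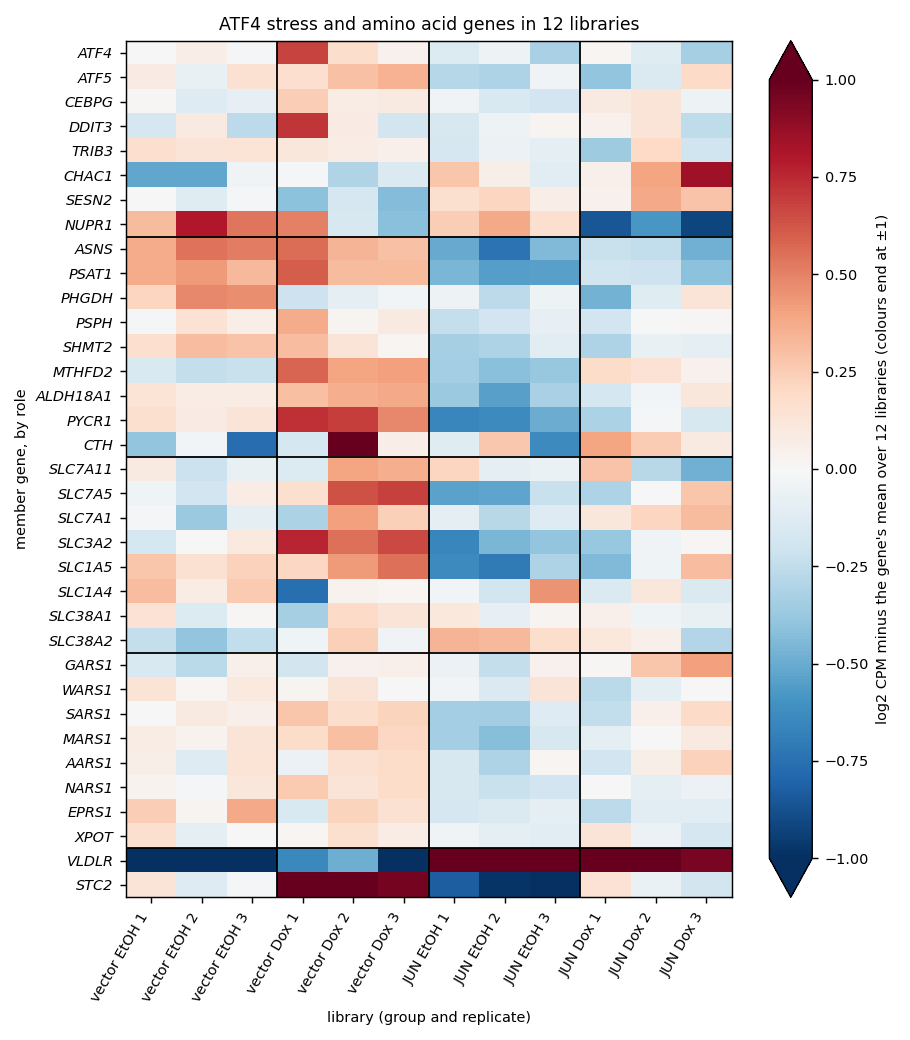
Level of the 35 tested members (rows, ordered by role and separated by lines) in each of the 12 libraries (columns), as log2 CPM minus the gene's mean over the 12 libraries, with colours that end at ±1. The enzymes ASNS, PSAT1 and PYCR1 and the secreted factor STC2 are blue in the JUN EtOH libraries, VLDLR is blue in the vector libraries and red in the JUN libraries, and vector Dox replicate 1 differs from its fellows for ATF4, DDIT3, NUPR1 and SLC1A4.

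The interaction asks whether induction differed between JUN and vector cells. It called 1 of the 35 members (2.86%), VLDLR, against 1.12% of all genes. At an unadjusted p under 0.05 were 4 members, but all genes were not counted at that threshold, so this count has no background. Of all genes 0.291% were called higher, 0.826% lower, as VLDLR was, and 0.738% past an absolute log2 fold change of 1, as it was too. DESeq2 called 2, VLDLR and SLC38A2, against 2.23% of all genes. Without replicate 1 of both Dox groups 4 members (1 of them higher) were called, against 3.21% of all genes (1.12% higher).

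Group means put the members in an order. The mean was highest in vector Dox for 20 of the 35 members, in JUN Dox for 4, in vector EtOH for 8 and in JUN EtOH for 3, and it was lowest in JUN EtOH for 21. Many of these orders were not separated. For ATF4, CEBPG, DDIT3 and PSPH, among others, groups next to each other in the order overlapped at every step. The same count was not made over all genes, so these counts have no background beside them. Summed over the 36 members, their share of all counts was 0.733% to 0.817% in vector EtOH and 0.872% to 1.03% in vector Dox, and with JUN 0.641% to 0.683% without and 0.731% to 0.818% with Dox. JUN EtOH was thus below the other groups in every library and vector Dox above them, while vector EtOH and JUN Dox overlapped. The sum is weighted towards abundant members, and SLC7A5 was its largest single part. For the empty vector SLC7A5 averaged 2693 CPM, rising to 3964 CPM on induction, and for JUN 2080 CPM, rising to 2802 CPM. The share without SLC7A5 was not computed, so this order of the groups is not shown for the remaining members.

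**Figure D2:**
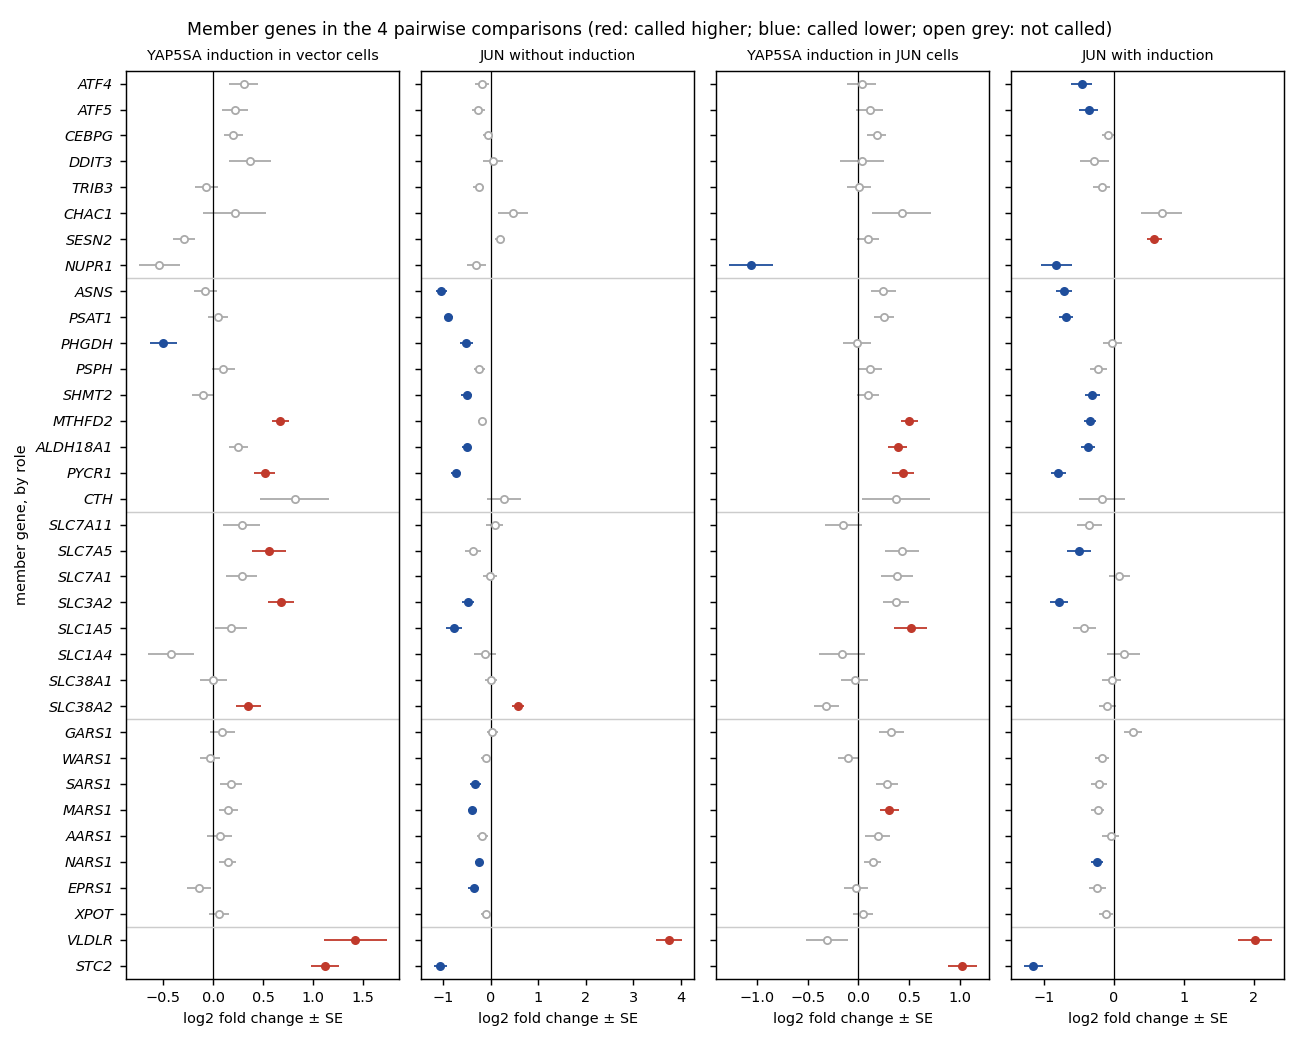
Log2 fold change ± SE of the 35 tested members (rows, by role) in the pairwise comparisons (panels, each with its own axis). Filled red and blue points were called higher and lower by edgeR at an adjusted p under 0.05, and open grey points were not called. Blue points gather among the enzymes in both JUN panels, where 13 members each were called lower.

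Among the 8 regulators of the response, no member was called on induction in vector cells or with JUN without induction, 1 was called lower on induction with JUN, and 4 were called with JUN under induction, 3 lower and 1 higher. Over all genes, 15.6%, 20.1%, 11.2% and 18.4% were called higher in these comparisons, in the order named. Called lower were 14.4%, 18.9%, 10.3% and 17.2%, and the counts by role that follow stand beside these shares. ATF4 itself (chr22:39915700-39918688 on GRCh37, plus strand) was at 202, 211 and 199 CPM in vector EtOH and at 322, 228 and 207 CPM in vector Dox. JUN EtOH libraries held 183, 194 and 161 CPM, and JUN Dox libraries 205, 185 and 160 CPM. Vector Dox replicate 1 was by far the highest of all libraries. The groups did not overlap in either JUN comparison, without or under induction. With JUN under induction ATF4 was 0.726-fold of the vector level (log2 fold change -0.46 ± 0.15 SE, adjusted p = 0.0247). Its other comparisons were not called, with log2 fold changes of 0.31, -0.19 and 0.03. Without vector Dox replicate 1 the ATF4 value was -0.24 (adjusted p = 0.127), and the call was also lost without JUN Dox replicate 2 (adjusted p = 0.0609), without JUN Dox replicate 3 (0.0826) and with only the libraries of the comparison (0.091).

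NUPR1 (chr16:28544029-28550329, minus strand), a small stress-induced chromatin protein, was at 7.80, 10.9 and 9.11 CPM in vector EtOH and 8.90, 5.59 and 4.67 in vector Dox. With JUN, libraries held 7.44, 8.13 and 6.99 under EtOH and 3.41, 4.15 and 3.27 under Dox. The JUN Dox libraries lay below every other library. On YAP5SA induction with JUN present NUPR1 fell to 0.48-fold (log2 fold change -1.06 ± 0.22 SE, adjusted p = 0.00312), a call kept in every alternative run. In vector cells the change on induction was -0.54 ± 0.21 (adjusted p = 0.0655), and -0.86 (adjusted p = 0.0025) without vector Dox replicate 1, the library that overlapped vector EtOH. With JUN under induction NUPR1 was lower by -0.82 ± 0.22 (adjusted p = 0.01), but by -0.50 (adjusted p = 0.0595) without that same library. The difference between the inductions was -0.52 with a 95% interval of -1.17 to 0.12 (adjusted p = 0.708).

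SESN2, a leucine sensor that restrains mTORC1, differed from ATF4 in direction. It was at 22.0, 26.1 and 21.6 CPM in vector Dox and 30.2, 38.1 and 35.6 CPM in JUN Dox, groups that did not overlap, and was 1.49-fold higher with JUN under induction (log2 fold change 0.58 ± 0.11 SE, adjusted p = 0.00107), a call kept in all alternatives. Vector EtOH libraries held 26.9 to 29.2 CPM and JUN EtOH libraries 30.7 to 34.0 CPM, without a call (adjusted p = 0.175). ATF5, an ATF4-like factor also controlled by translation, was lower with JUN under induction (-0.36 ± 0.13, adjusted p = 0.0441), but the groups overlapped and the call was lost in 11 of 19 alternatives, among them those without any 1 of the vector EtOH libraries, vector Dox replicates 2 and 3, JUN EtOH replicates 1 and 2 or JUN Dox replicates 1 and 2, with adjusted p up to 0.176. ATF5 shares 565 exon bases with NUP62, which averaged 3758 counts against 1626 for ATF5, so without strand its value is uncertain.

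CHAC1, which degrades glutathione and is among the genes most closely tied to ATF4, was expressed close to the limit of counting, at 0.646 to 0.942 CPM in vector EtOH and 1.00 to 1.81 CPM in JUN Dox. Its change with JUN under induction was 0.68 ± 0.30 (adjusted p = 0.0848), with non-overlapping groups in that comparison and a 95% interval of 0.05 to 1.31. DDIT3 (CHOP), the factor that links lasting ER stress to cell death, was at 4.17 to 5.49 CPM in 11 libraries and at 8.29 CPM in vector Dox replicate 1, and no comparison called it. Its exons share 355 bases with MARS1, which averaged 2741 counts against 117 for DDIT3, so this low level is uncertain too. The remaining regulators, CEBPG, the dimer partner of ATF4, and TRIB3, a pseudokinase that feeds back on ATF4, were not called in any comparison, with pairwise log2 fold changes of -0.08 to 0.20 for CEBPG and -0.25 to 0.0042 for TRIB3. CEBPG and CHAC1 both carry the element printed above.

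Among the enzymes, 9 of 10 were tested, and these made up 6 of the 13 members lower in each JUN comparison, with none higher. That is 66.7% of the enzymes tested, against 18.9% of all genes lower without induction and 17.2% under it. Induction called 3 of the 9 in vector cells (2 higher, 1 lower) and 3 in JUN cells (all higher). ASNS (chr7:97480989-97501854, minus strand), which makes asparagine from aspartate and glutamine, was at 24.2, 27.4 and 26.8 CPM in vector EtOH and 27.6, 23.8 and 22.9 in vector Dox. In the JUN cells it was at 13.2, 11.2 and 13.8 without Dox and 16.1, 15.8 and 13.4 with it. Each JUN library lay below each vector library. JUN lowered ASNS to 0.487-fold without induction (log2 fold change -1.04 ± 0.12 SE, adjusted p = 1.32e-05) and to 0.609-fold under induction (-0.72 ± 0.12, adjusted p = 0.000334), and both calls were kept in all alternatives. Induction left ASNS without a call in vector cells (-0.08, 95% interval -0.33 to 0.17) and in JUN cells (0.24, -0.02 to 0.50).

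PSAT1 and the other genes of serine synthesis did not behave alike. PSAT1, the aminotransferase of the pathway, was at 106, 110 and 103 CPM in vector EtOH and 125, 102 and 102 in vector Dox. The JUN libraries were at 59.7, 56.1 and 56.1 in EtOH, and at 71.5, 71.0 and 61.8 in Dox, so that JUN and vector libraries did not overlap. It was lower with JUN by -0.89 ± 0.10 without induction (adjusted p = 9.7e-06) and by -0.69 ± 0.10 under induction (adjusted p = 9.67e-05), in all alternatives. PHGDH, which commits the glycolytic intermediate to the pathway, was at 43.0, 51.9 and 51.2 CPM in vector EtOH and at 26.7 to 40.7 CPM in the other 9 libraries. It fell on induction in vector cells (-0.50 ± 0.14, adjusted p = 0.0122) and with JUN without induction (-0.51 ± 0.14, adjusted p = 0.00907), whereas the values in the comparisons with JUN Dox were -0.01 and -0.02. PSPH, which takes the last step, was not called, with log2 fold changes of -0.24 to 0.12. SHMT2, which passes the serine carbon to folate in mitochondria, was lower with JUN in both comparisons (-0.50 and -0.31); the second call was lost in 9 of 19 alternatives, those without any 1 of vector EtOH replicates 2 and 3, vector Dox replicates 1 and 2 or JUN Dox replicates 1 and 2 included, with adjusted p up to 0.296.

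MTHFD2, the next mitochondrial folate enzyme, was the enzyme with the largest called rise on induction. Its libraries were at 122, 115 and 116 CPM in vector EtOH and 202, 178 and 180 in vector Dox. JUN-infected cells had 107, 101 and 104 without and 154, 149 and 139 with Dox. Induction raised it 1.59-fold in vector cells (adjusted p = 3.83e-05) and 1.42-fold in JUN cells (adjusted p = 0.000807), and it was lower with JUN under induction (-0.34 ± 0.09, adjusted p = 0.00675), a call lost with only the libraries of that comparison (adjusted p = 0.0678). The difference between the inductions was -0.17 with a 95% interval of -0.43 to 0.09. MTHFD2 shares 1324 exon bases with SLC4A5 on the opposite strand, which averaged 3499 counts against 3205, so its reads and those of SLC4A5 cannot be told apart.

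PYCR1 and ALDH18A1 make proline from glutamate in mitochondria. PYCR1, the last enzyme of that route, was called in all 4 pairwise comparisons, as was STC2 and no other member. It was at 26.9, 25.5 and 26.4 CPM in vector EtOH and 40.1, 39.0 and 33.7 in vector Dox. With JUN, libraries held 15.3, 15.4 and 17.0 under EtOH and 19.3, 23.9 and 21.6 under Dox. The 4 groups were fully separated in the order vector Dox, vector EtOH, JUN Dox, JUN EtOH. Induction raised it 1.43-fold in vector cells (adjusted p = 0.00185) and 1.36-fold in JUN cells (adjusted p = 0.00954), and JUN lowered it to 0.606-fold without induction (adjusted p = 0.000139) and 0.575-fold under it (adjusted p = 4.61e-05). The inductions differed by -0.08, with a 95% interval of -0.40 to 0.25. The rise in JUN cells missed the threshold without JUN Dox replicate 2 (adjusted p = 0.0559). ALDH18A1, the first enzyme of the route, was lower with JUN in both comparisons (-0.51 and -0.37) and higher on induction in JUN cells (0.39, adjusted p = 0.00943, and 0.0606 without JUN EtOH replicate 2). CTH, which makes cysteine from cystathionine, was at 0.987 to 3.65 CPM, and its change of 0.81 ± 0.34 on induction in vector cells was not called (adjusted p = 0.0886); the highest value was that of vector Dox replicate 2.

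**Figure D3:**
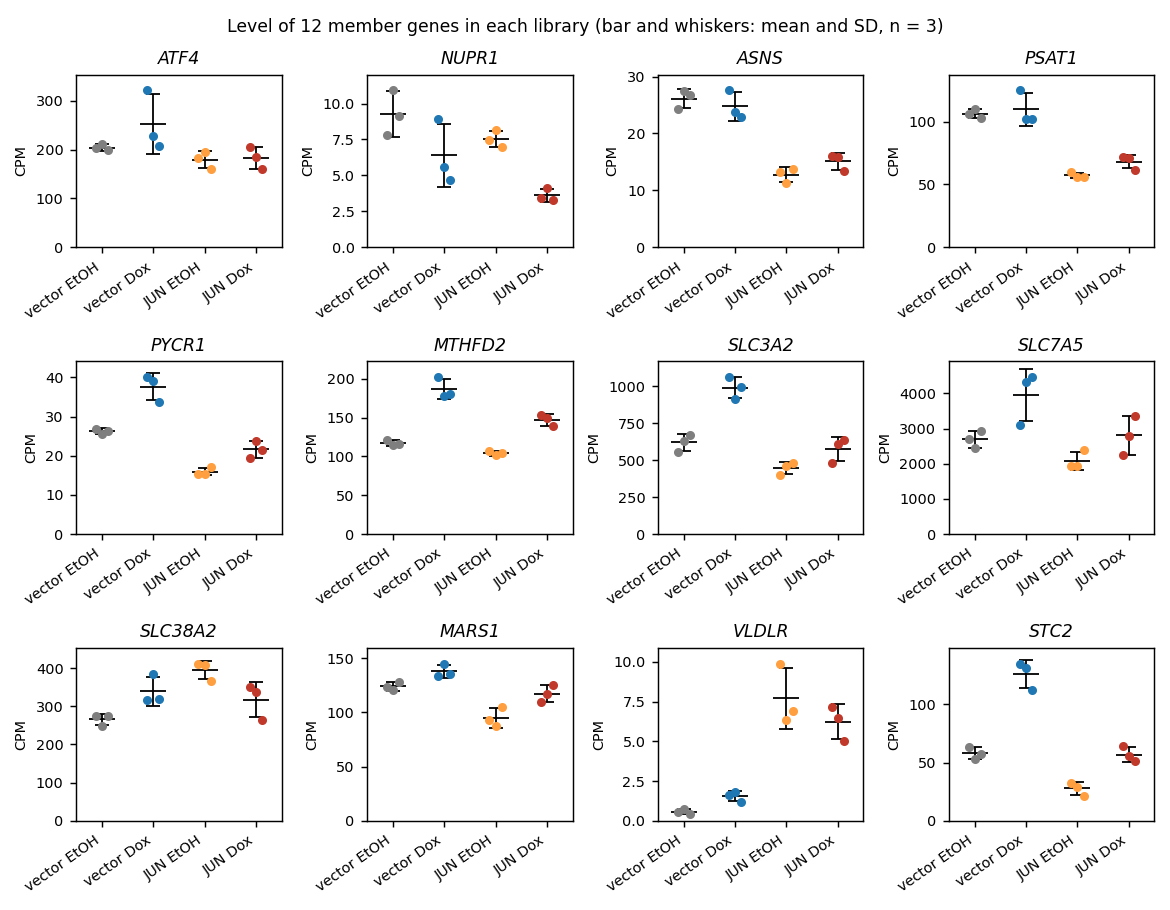
CPM of 12 members in each library (points, axes from 0), by group, with the mean and SD of 3 libraries. PYCR1 separates into 4 levels and STC2 about doubles in Dox over EtOH in vector and JUN cells, while VLDLR is at 0.404 to 1.80 CPM in the vector libraries and at 5.05 to 9.86 CPM in the JUN libraries.

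Of the 8 transporters, 3 were called higher on induction in vector cells and none lower, and 1 was higher on induction in JUN cells. With JUN, 2 were lower and 1 higher without induction, and 2 were lower under induction. The higher calls were 37.5% in vector cells, against 15.6% of all genes, and 12.5% in JUN cells, against 11.2%. The lower calls with JUN were 25% each time, against 18.9% without and 17.2% under induction. SLC3A2 (CD98 heavy chain) carries SLC7A5 and SLC7A11 to the cell surface. It was at 556, 631 and 672 CPM in vector EtOH and 1062, 917 and 992 in vector Dox. In the JUN cells it was at 399, 457 and 478 without Dox and 483, 612 and 633 with it. The vector Dox libraries lay above all others and the JUN EtOH libraries below all others. SLC3A2 rose 1.60-fold on induction in vector cells (0.68 ± 0.13, adjusted p = 0.00107) and was lower with JUN by -0.48 ± 0.13 without induction (adjusted p = 0.00938) and by -0.78 ± 0.13 under it (adjusted p = 0.000302). The first of these JUN calls was lost without JUN EtOH replicate 1 (-0.40, adjusted p = 0.0576). Induction in JUN cells gave 0.37 ± 0.13 (adjusted p = 0.0513). The inductions differed by -0.30, with an interval of -0.69 to 0.08.

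SLC7A5, the light chain LAT1 that imports leucine and other large neutral amino acids, also had its highest mean in vector Dox and its lowest in JUN EtOH, with a wider spread. Vector EtOH libraries held 2707, 2445 and 2929 CPM, vector Dox 3111, 4319 and 4462, JUN EtOH 1924, 1932 and 2386, and JUN Dox 2252, 2788 and 3367. It rose on induction in vector cells (0.56 ± 0.17, adjusted p = 0.024) and was lower with JUN under induction (-0.50 ± 0.17, adjusted p = 0.0351), where vector Dox replicate 1 lay below the highest JUN Dox library. The first call was lost without vector EtOH replicate 1 (adjusted p = 0.0638) or 2 (0.0978) and without vector Dox replicate 2 (0.0788) or 3 (0.0972). The second was lost in 6 of 19 alternatives, those without vector EtOH replicate 3, vector Dox replicate 2 or 3 and JUN Dox replicate 1 or 2 included, with adjusted p up to 0.126. The other pairwise comparisons pointed the same way without a call. SLC7A5 changed by -0.37 ± 0.17 with JUN without induction (adjusted p = 0.0983) and by 0.43 ± 0.17 on induction in JUN cells (adjusted p = 0.0924). Each was called in 4 of 19 alternatives. Pseudogene SLC7A5P2 had 709 counts a library, against 6.71e+04 for SLC7A5.

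SLC1A5 (ASCT2), the main glutamine carrier and one of the genes with the element shown above, was at 429, 393 and 414 CPM in vector EtOH and 408, 475 and 518 in vector Dox. The JUN libraries were at 227, 216 and 285 in EtOH, and at 261, 343 and 438 in Dox. JUN lowered it to 0.59-fold without induction (-0.76 ± 0.17, adjusted p = 0.00237) in all alternatives. With JUN under induction SLC1A5 was not called (-0.43 ± 0.16, adjusted p = 0.0553). It was called lower there in 5 of 19 alternatives, DESeq2, upper-quartile factors and the replicate block among them. On induction in JUN cells it rose 1.43-fold (adjusted p = 0.0368), with JUN Dox replicate 1 inside the range of JUN EtOH, and that call was lost in 6 of 19 alternatives, those without vector EtOH replicate 3, JUN EtOH replicate 1 or 2 and JUN Dox replicate 2 or 3 included, with adjusted p up to 0.179.

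SLC38A2 (SNAT2), a sodium-coupled carrier of small neutral amino acids that cells raise when amino acids run short, was the transporter called higher with JUN. It was at 275, 248 and 274 CPM in vector EtOH and 316, 384 and 318 in vector Dox. JUN-infected cells had 411, 408 and 367 without and 350, 337 and 265 with Dox. With JUN and no induction it was 1.49-fold higher (0.57 ± 0.12, adjusted p = 0.00216), in all alternatives. Induction gave 0.35 ± 0.12 in vector cells (adjusted p = 0.0406, lost in 11 of 19 alternatives with adjusted p up to 0.172, with each vector EtOH library, vector Dox replicates 2 and 3, JUN EtOH replicates 1 and 2 and JUN Dox replicate 2 among those left out) and -0.32 ± 0.12 in JUN cells (adjusted p = 0.0812). The difference between these values was -0.67 ± 0.17 (adjusted p = 0.0901 in edgeR, 0.0086 in DESeq2 and 0.0113 without replicate 1 of both Dox groups). SLC7A11, the cystine importer, SLC7A1, an arginine and lysine carrier, SLC1A4, which carries serine and alanine, and SLC38A1, a glutamine carrier, were not called in any comparison. Their pairwise log2 fold changes ran from -0.42, for SLC1A4, to 0.38, for SLC7A1. Without replicate 1 of both Dox groups, SLC7A11 was lower with JUN under induction (-0.75, adjusted p = 0.000181) and its induction differed between JUN and vector cells by -0.82 (adjusted p = 0.00748). SLC7A11 shares 865 exon bases with the antisense gene SLC7A11-AS1, which averaged 717 counts against 860.2, so its value is uncertain.

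The tRNA-charging enzymes and the tRNA exporter XPOT had pairwise log2 fold changes between -0.38 and 0.32. None of the 8 was called on induction in vector cells, 4 were lower with JUN without induction, 1 was higher on induction in JUN cells and 1 was lower with JUN under induction. The last 3 counts are 50%, 12.5% and 12.5%, against 18.9%, 11.2% and 17.2% of all genes. MARS1, which charges tRNA with methionine, was at 124, 120.2 and 128 CPM in vector EtOH and 133, 145 and 136 in vector Dox. With JUN, libraries held 92.6, 87.4 and 105 under EtOH and 109.8, 117 and 125 under Dox. JUN EtOH lay below all other libraries, and MARS1 was lower with JUN without induction (-0.38 ± 0.09, adjusted p = 0.00503) in all alternatives. It rose on induction in JUN cells (0.30 ± 0.09, adjusted p = 0.0308), a call lost in 6 of 19 alternatives, those without JUN EtOH replicate 1 or 2 and JUN Dox replicate 2 or 3 included, with adjusted p up to 0.146.

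The other calls in this group were small. EPRS1, the enzyme for glutamate and proline, was at 403 to 514 CPM in vector EtOH and 353 to 373 in JUN EtOH (-0.36 ± 0.12, adjusted p = 0.0302), and SARS1, for serine, at 133 to 142 and 104 to 122 CPM (-0.32 ± 0.11, adjusted p = 0.0332). NARS1, for asparagine, was lower with JUN without induction (-0.24, adjusted p = 0.035) and under it (-0.24, adjusted p = 0.0347). Each of these calls was lost in 5 to 10 of the 19 alternatives. EPRS1 lost it without vector EtOH replicate 1 or 3 or any 1 JUN EtOH library (adjusted p up to 0.145), and SARS1 without any 1 vector EtOH library or JUN EtOH replicate 1 or 2 (up to 0.124). For NARS1 the first call was lost without any 1 of the EtOH libraries or JUN Dox replicate 2 (up to 0.143), and the second without vector EtOH replicate 1 or 3, vector Dox replicate 1 or 3, JUN EtOH replicate 1 or JUN Dox replicate 2 or 3 (up to 0.161). GARS1, WARS1, AARS1 and XPOT were not called, and among them GARS1, for glycine, had the highest value, 0.32 ± 0.12 on induction in JUN cells (adjusted p = 0.078).

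Promoters with the CEBP-ATF element were found on both sides of these calls. Of the 13 members lower with JUN without induction, 11 had a window and 3 of them, SLC1A5, MARS1 and NARS1, held the element. Of the 14 members never called, 12 had a window and 6 held it.

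STC2, a secreted glycoprotein induced in ER stress, responded to both factors. STC2 (chr5:172741726-172755450, minus strand) was at 63.6, 53.1 and 57.4 CPM in vector EtOH and 135, 131 and 113 in vector Dox. In the JUN cells it was at 32.7, 29.4 and 21.6 without Dox and 64.1, 55.4 and 51.2 with it. The vector Dox libraries lay above and the JUN EtOH libraries below all others, while vector EtOH and JUN Dox overlapped. Induction raised it 2.17-fold in vector cells (1.12 ± 0.14, adjusted p = 2.74e-05) and 2.04-fold in JUN cells (1.03 ± 0.14, adjusted p = 0.000133). JUN lowered it to 0.481-fold without induction (-1.06 ± 0.14, adjusted p = 5.7e-05) and 0.451-fold under it (-1.15 ± 0.14, adjusted p = 1.97e-05). All of these calls were kept in all alternatives, and the inductions differed by -0.09, with a 95% interval of -0.52 to 0.33.

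VLDLR, a receptor for lipoproteins and reelin that ATF4 signalling is known to raise, was the member with the largest change. VLDLR (chr9:2621182-2660056, plus strand) was at 0.570, 0.749 and 0.404 CPM in vector EtOH and 1.61, 1.80 and 1.20 in vector Dox. The JUN libraries were at 9.86, 6.32 and 6.90 in EtOH, and at 7.17, 6.48 and 5.05 in Dox. The vector EtOH values rested on 15, 15 and 9 counts, which were above the floor of 3 counts a library. VLDLR shares 260 exon bases with the antisense gene VLDLR-AS1, which averaged 10 counts against 91.8. It also shares 1100 exon bases with an unnamed long noncoding RNA on the opposite strand, which had no row in the count table. The level of that RNA is unknown, so without strand the VLDLR value is uncertain. Every JUN library lay above every vector library, and vector Dox above vector EtOH. JUN raised it 13.4-fold without induction (3.74 ± 0.28, adjusted p = 1.4e-07) and 4.04-fold under induction (2.01 ± 0.24, adjusted p = 1.67e-05). Induction raised it 2.68-fold in vector cells (1.42 ± 0.32, adjusted p = 0.00336), whereas the value in JUN cells was -0.31 ± 0.21 (adjusted p = 0.337). These 3 calls were kept in all alternatives. The difference between the inductions was -1.73 ± 0.38, with a 95% interval of -2.54 to -0.92 (adjusted p = 0.0387); it was lost in 9 of the 12 fits that left out 1 library.

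Genes of the same pathways that are not members were counted in 6 lists of 96 genes, 90 of them tested. Over all 90, 28 were called on induction in vector cells (17 higher, 11 lower), 46 with JUN without induction (18 higher, 28 lower), 23 on induction in JUN cells (11 higher, 12 lower) and 37 with JUN under induction (13 higher, 24 lower). These are 31.1%, 51.1%, 25.6% and 41.1% of them, beside 30.1%, 39%, 21.4% and 35.6% of all genes. The counts of single lists that follow stand beside the shares of all genes called higher and lower, given above with the regulators.

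Upstream of ATF4, the 16 genes of the eIF2 kinases, eIF2, its exchange factor eIF2B and its phosphatase held 6 calls on induction in vector cells and 3 in JUN cells, all higher. JUN lowered 5 and raised 3 of them without induction, and lowered 4 and raised 2 under it. PPP1R15A (GADD34), which directs the phosphatase to eIF2 and so ends the response, had the highest called value of this list, 1.30 ± 0.12 with JUN without induction (adjusted p = 1.47e-06), and the eIF2B subunit EIF2B2 the lowest, -0.49 ± 0.12 in the same comparison (adjusted p = 0.00462). Further genes linked to ATF4, 11 of them tested, held 8 calls on induction in vector cells (3 higher, 5 lower), 6 with JUN without induction (1 higher, 5 lower), 6 on induction in JUN cells (1 higher, 5 lower) and 7 with JUN under induction (1 higher, 6 lower). Their highest called value was 1.31 ± 0.25 for GADD45A, a growth arrest gene, on induction in vector cells, and their lowest -2.63 ± 0.19 for GDF15, a stress cytokine, with JUN without induction (adjusted p = 1.07e-07).

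The 13 other cytosolic aminoacyl-tRNA synthetases were called lower with JUN in 6 cases without induction and 3 under it, and none was higher. All 13 lay below 0 without induction. Induction raised 2 and lowered 1 in vector cells and raised 3 in JUN cells. FARSB and FARSA, the subunits of the phenylalanine enzyme, had the highest and the lowest called value, 0.48 ± 0.10 on induction in JUN cells and -0.60 ± 0.14 with JUN without induction. Without replicate 1 of both Dox groups, 8 of the 13 were higher on induction in JUN cells, against 15.2% of all genes, and none was called with JUN under induction, against 27.9% of all genes. The 16 other amino acid and one-carbon enzymes showed 9 lower and 2 higher with JUN without induction, and 5 lower and 3 higher under it, with GOT1, the cytosolic aspartate aminotransferase, lowest at -0.98 ± 0.10 without induction and MTHFD2L, a mitochondrial folate enzyme related to MTHFD2, highest at 1.24 ± 0.15 under induction.

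Of the 15 other amino acid transporters tested, 5 were higher and 2 lower with JUN without induction, and 4 were higher and 2 lower under it. The cationic amino acid transporter SLC7A2 was highest, at 2.23 ± 0.17 with JUN without induction (adjusted p = 1.61e-07), and SLC7A8, a carrier of neutral amino acids at no more than 43 counts a library, was lowest, at -2.66 ± 0.33 on induction in JUN cells. In the list of ER chaperones and the ATF6 and IRE1 branches, the other arms of the response to misfolded ER proteins, 7 of 19 genes were higher and 1 lower with JUN without induction, and 3 were higher and 4 lower under it. EDEM1, which sorts misfolded glycoproteins for degradation, was highest at 1.40 ± 0.27 without induction, and the sensor ERN1 (IRE1) lowest at -0.81 ± 0.22 on induction in JUN cells.

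**Figure D4:**
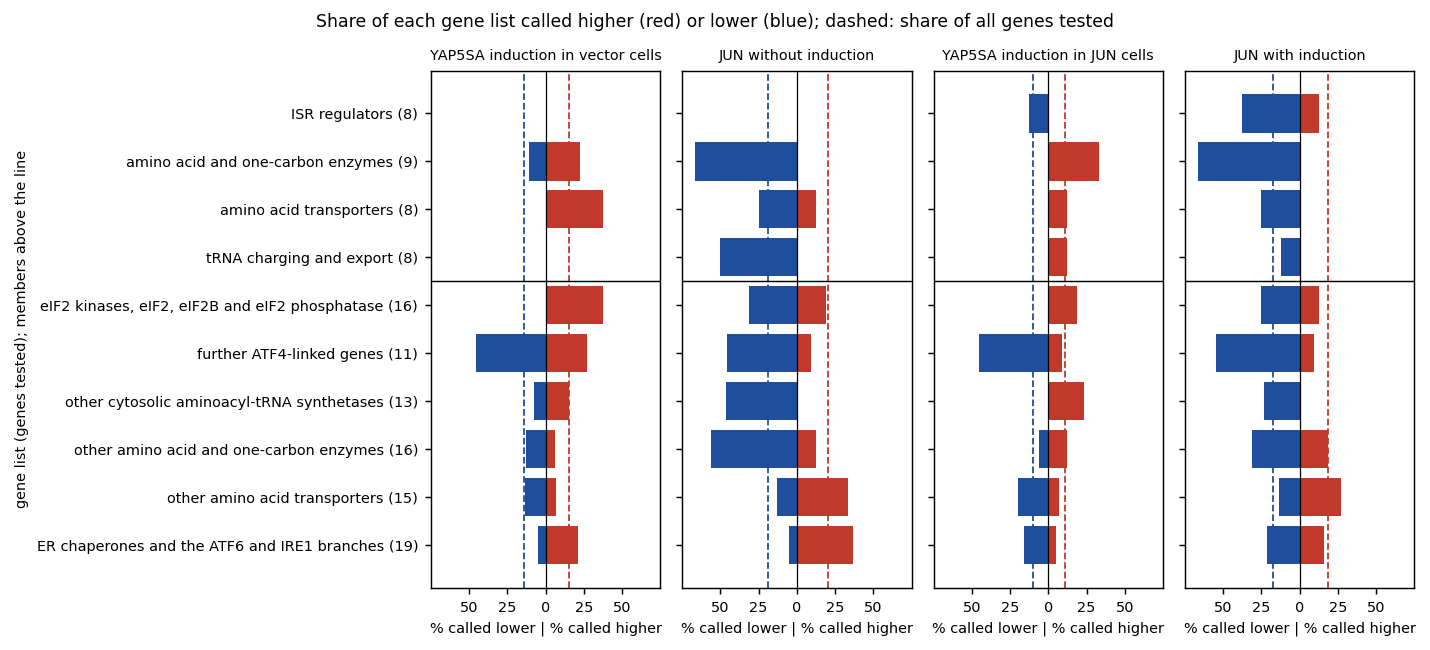
Share of each gene list called lower (blue, left) or higher (red, right), in percent of the genes tested (number in parentheses), in the pairwise comparisons (panels); the upper 4 lists are members by role and the lower 6 are companion genes. Dashed lines mark the share of all genes tested called in that direction, and the enzymes among the members reach 6 of 9 called lower in both JUN panels, past those lines.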

How the data were processed

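Poly(A) RNA of 12 libraries was measured by single-end sequencing. The authors deposited raw counts per Entrez gene, without normalization; per the labels and methods they trimmed reads with cutadapt 4.2, aligned them to hg19 with Bowtie2 2.3.5.1 (version from the submitters' processing notes) and counted overlaps with GenomicRanges. Annotation and strand are not given in the sources used here, so genes that share exon bases are uncertain, and Bowtie2 does not split reads over introns. For their own tests the authors used DESeq2.

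Here edgeR 4.0.16 in R 4.3.3 fitted 1 robust quasi-likelihood model to all 12 libraries (filterByExpr, minimum count 10 and total 15; TMM), with Benjamini-Hochberg adjustment over 14775 genes, a call at an adjusted p under 0.05 and a biological coefficient of variation of 12.5%. CPM used TMM-scaled totals. A floor of 3 counts was 0.107 to 0.15 CPM and covers counting error only. A share of 99.4% of IDs had a RefSeq symbol. Gene spans are GENCODE on GRCh37, the assembly of hg19. The methods call the 3 libraries of a group biological replicates. The code was tested on simulated data.

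Members and lists were chosen with earlier results of these data known. Full values are given for ATF4, for members called with a change past 1 on the log2 scale and for those called in the interaction, and examples are the up to 4 largest changes by role; other called members were named after their values were seen. Alternatives were DESeq2 1.42.0, RLE and upper-quartile factors, no low-count filter, fits of each comparison's own libraries, a block for the replicate number, each library omitted in turn, and replicate 1 of both Dox groups left out (added after seeing the data).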

Additional observations from a re-analysis of the deposited data

Results flagged for a closer look

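VLDLR was marked because its response to YAP5SA induction differed between the JUN and the vector cells by a test of the difference itself. The induction with JUN less the induction with empty vector was -1.729 on the log2 scale (SE 0.38, edgeR adjusted p = 0.0387). It rose in all 3 vector Dox libraries relative to vector EtOH, and JUN Dox and JUN EtOH overlapped. Its baseline in vector EtOH was 9 to 15 counts a library.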

How the results depend on the processing

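None of the 46 member calls changed sign in any alternative run, while 43 of the 129 member values that were not called did in at least 1. Of the calls, 6 of 8 on induction in vector cells, 11 of 15 with JUN without induction, 3 of 7 on induction in JUN cells, 7 of 15 with JUN under induction and 0 of 1 in the interaction were kept in all of them. With only the libraries of a comparison, 8 members were called with JUN under induction, where 3439 genes were called over the table against 5267, and YAP1 was called higher on induction in vector cells (0.376) and with JUN without induction (0.391). DESeq2 called 2 members in the interaction, and 340 genes over the table against 165. With upper-quartile factors the median member on induction in vector cells was 0.131, with all genes at -0.041. Leaving out vector Dox replicate 1 and JUN Dox replicate 1 together gave 13 members called on induction in vector cells, 15 on induction in JUN cells and 4 in the interaction. In that setting 35.2%, 29% and 3.21% of all genes were called, in the same order. The median member on induction in vector cells was 0.125 there. YAP1 was called at 0.439 on induction in vector cells and 0.373 with JUN without induction, and 478 interaction genes were called over the table. The cause was not tested.

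With each library left out in turn, members called ranged from 6 to 11 on induction in vector cells, 11 to 17 with JUN without induction, 4 to 12 on induction in JUN cells, 11 to 16 with JUN under induction and 0 to 1 in the interaction. The share of all genes called differed between these fits too. In a fit with the lowest and a fit with the highest member count it was 23.7% and 28.6% on induction in vector cells. It was 25.6% and 42.5% with JUN without induction, and 13.9% and 25.9% on induction in JUN cells. With JUN under induction it was 32.1% and 34.8%, and in the interaction 0.769% and 0.77%. The median member on induction in vector cells ranged from 0.134 to 0.18. YAP1 ranged from 0.275 to 0.452 on induction in vector cells, from 0.339 to 0.457 with JUN without induction and from 0.00885 to 0.417 with JUN under induction, and was called without JUN Dox replicate 3 in each of these (the last at 0.417) and without JUN Dox replicate 1 in the first and second. Over the table, JUN without induction gave 3823 genes without JUN EtOH replicate 1 against 5766, induction in JUN cells gave 2082 without JUN EtOH replicate 2 against 3168, and the interaction gave 97 without vector EtOH replicate 3, 107 without JUN EtOH replicate 1 and 99 without JUN EtOH replicate 2.

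The labels tied same-numbered libraries of different groups by that number only. Of 18 correlations of their deviations, 7 were over 0.1 (-0.258 to 0.466). The highest were 0.466 for replicate 3 and 0.283 for replicate 1, both between JUN EtOH and JUN Dox. Whether same-numbered libraries were handled together was not tested. A fit with the replicate block lost 0 member calls and gained 6, and called 1 member in the interaction, against 1.33% of all genes. Depth limited CHAC1, CTH, CBS and VLDLR most.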

Other observations

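Among the further ATF4-linked genes, a pair named after their values were seen changed more on YAP5SA induction than any member. DDIT4 (REDD1), which restrains mTORC1, was at 724 ± 43.7 CPM (SD, n = 3) in vector EtOH and 153 ± 18.1 in vector Dox, and with JUN at 694 ± 113 without and 142 ± 28.7 with Dox. It was lower on induction in vector cells by -2.24 ± 0.16 (SE, edgeR adjusted p = 1.08e-07) and in JUN cells by -2.29 ± 0.16 (adjusted p = 2.66e-07), with log2 changes with JUN of -0.06 and -0.11. CEBPB, a C/EBP factor that can pair with ATF4, was at 519.9 ± 30.9, 166 ± 11.1, 555 ± 18.8 and 201 ± 14.3 CPM in the same order. It fell on induction by -1.65 ± 0.10 and -1.46 ± 0.10 on the log2 scale, and was slightly higher with JUN under induction (0.28 ± 0.10, adjusted p = 0.0404).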
